A study of Mus musculus with 8 samples.

Results

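The genes described are 10 mouse splicing regulators, chosen by symbol from the 27179 genes of the expression table: Rbfox1, Rbfox3, Nova1, Nova2, Celf4, Ptbp1, Ptbp2, Rbm20, Rbm24 and Esrp1. All 10 were in the table and all 10 were among the 15819 genes tested. Total RNA was sequenced from mouse brain, heart, kidney and liver. Each of the 4 organs gave 1 library from formalin-fixed, paraffin-embedded tissue (FFPE) and 1 from flash-frozen tissue, so the 8 groups held 1 library each. The sources used here give no strain, age, sex or number of animals and do not say whether organs shared animals. No genotype or drug treatment is named for any group. In the model below, the FFPE and the frozen library stand in as the 2 libraries of an organ. Its p-values therefore measure how unevenly FFPE and frozen tissue differ between organs in these 8 libraries, with spread also borrowed from other genes. How far they hold variation between animals is not known.

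Alternative splicing joins different sets of exons from one gene, and regulators of this kind are RNA-binding proteins that bind short motifs in or near an exon and favour or block its use. Rbfox, Nova, Celf and Ptbp proteins shape the splicing programme of neurons, Rbm20 and Rbm24 that of heart and skeletal muscle, and Esrp proteins that of epithelia. The reads were counted per gene, so the values are transcript levels of the regulators and carry no measure of exon use.

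Levels are given as counts per 1000000 reads (CPM), scaled as in the deposited table, and differences as log2 values. An organ was set against the mean of the other 3 organs in a limma model with organ and preservation as terms, and a gene was called where its p, adjusted over all tested genes by the Benjamini-Hochberg method, was under 0.05. The libraries held 10180972 to 20526813 counted reads. The organ labels were checked with 5 markers each of neurons, cardiomyocytes, kidney tubule and hepatocytes, and all 5 of each set were called higher in brain, heart, kidney and liver in turn. In bulk tissue, fewer cells of a type and less RNA per cell cannot be told apart.

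Among the regulators 6 had their highest level in brain, Rbm20 and Rbm24 in heart, and Ptbp1 and Esrp1 in kidney. The top organ was the same in the FFPE and the frozen libraries for 10 of 10 genes, and the full order of the 4 organs for 6 of 10. Of the 40 differences between an organ and the other 3, 38 had the same sign when computed in the FFPE libraries alone and in the frozen libraries alone. The exceptions were Ptbp2 in heart and Esrp1 in liver. Shares of all tested genes with the same top organ, order or sign are not given here. These counts are therefore not set apart from other genes. Tissue restriction varied widely between the genes. Celf4 had 98.7% of its CPM summed over the FFPE libraries in brain and 99.2% in the frozen libraries, whereas Ptbp1 had 39.2% and 41.4% in its top organ, kidney. Nova2, Ptbp1, Ptbp2 and Rbm20 exceeded 1 CPM in all 8 libraries. Rbfox3 exceeded it only in the 2 brain libraries, Celf4 only in those and frozen heart, and Esrp1 only in the 2 kidney libraries. Genes had to exceed 1 CPM in at least 2 libraries to be tested, so Rbfox3, Celf4 and Esrp1 entered the test through their top organ.

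**Figure D1:**
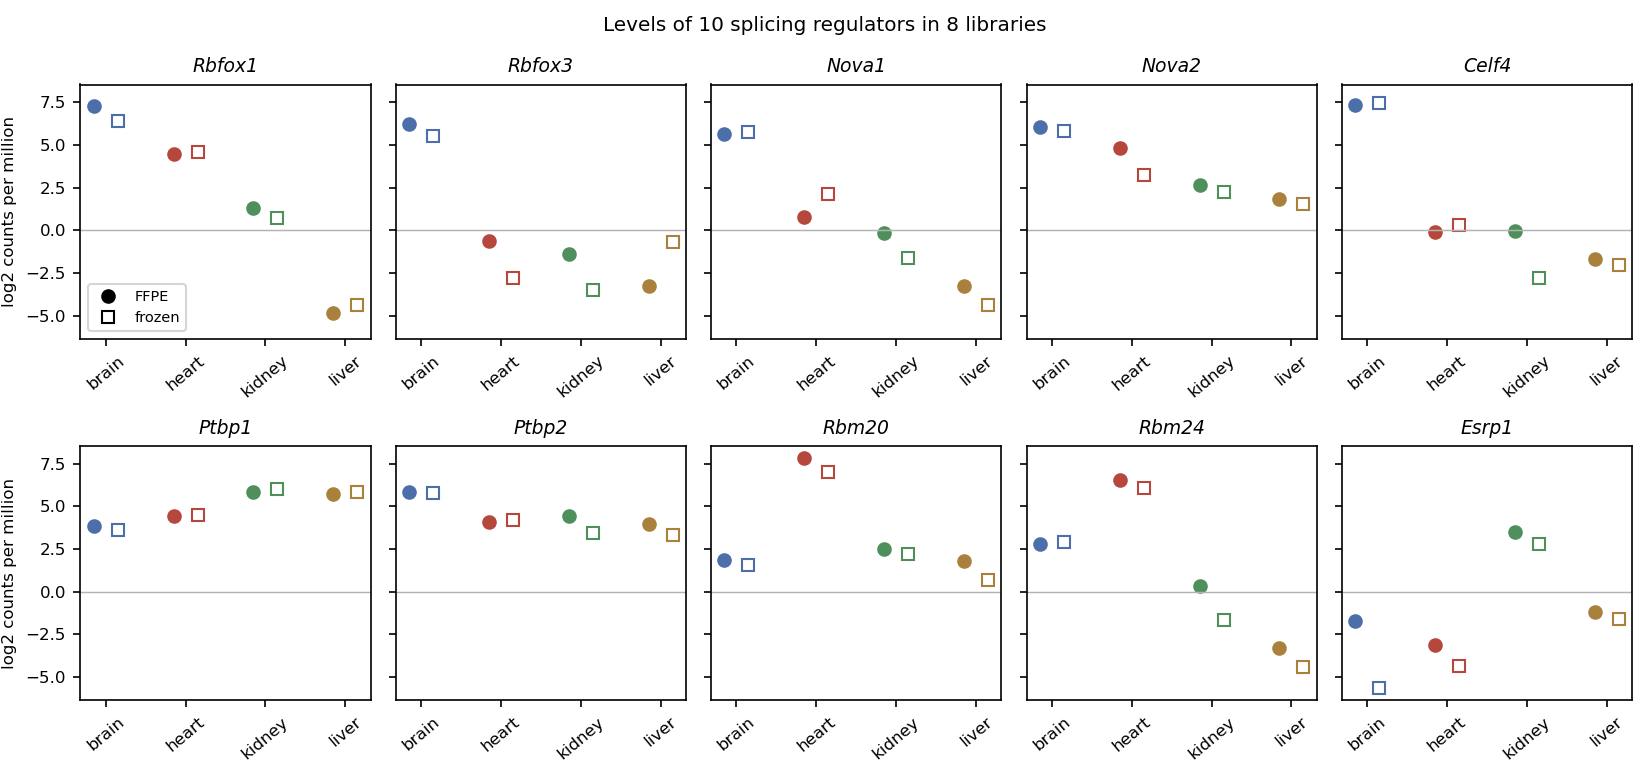
Level of each regulator in the 8 libraries, in log2 CPM with 0.5 reads added, by organ. Filled circles are FFPE and open squares frozen libraries, 1 library each. The lowest points, such as Rbfox1 in liver, stand for libraries with 0 reads. In all, 6 genes peak in brain, 2 in heart and 2 in kidney, in both kinds of tissue.

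Against the other organs, 7 of the 10 regulators were called higher in brain (Rbfox1, Rbfox3, Nova1, Nova2, Celf4, Ptbp2 and Rbm24) and 3 lower (Ptbp1, Rbm20 and Esrp1). Organ differences were common in these libraries, with 34.7% of all tested genes called higher in brain and 31.6% lower. In heart 3 were higher (Rbfox1, Rbm20 and Rbm24) and 2 lower (Ptbp1 and Esrp1), against a background of 21.5% and 28.7%. In kidney 2 were higher (Ptbp1 and Esrp1) and 7 lower, where 20.3% and 19.9% of all tested genes were called. In liver only Ptbp1 was called higher and 8 were lower, against 27.3% and 35.2% of all tested genes. Each call is against the mean of the other 3 organs, so a gene high in a single organ can be called lower in the rest. Rbm20, for example, was called lower in kidney, though its fitted level there (2.33 log2 CPM) stood above brain (1.72) and liver (1.22). The median difference of the 10 genes was 2.73 in brain, against 0.05 over all tested genes, on the log2 scale. It was 0.17 in heart, against −0.19 over all tested genes. For kidney these medians were −1.32 and −0.04, and for liver −2.57 and −0.13. The 10 genes were picked as tissue-specific regulators, so their medians are not independent of that choice.

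**Figure D2:**
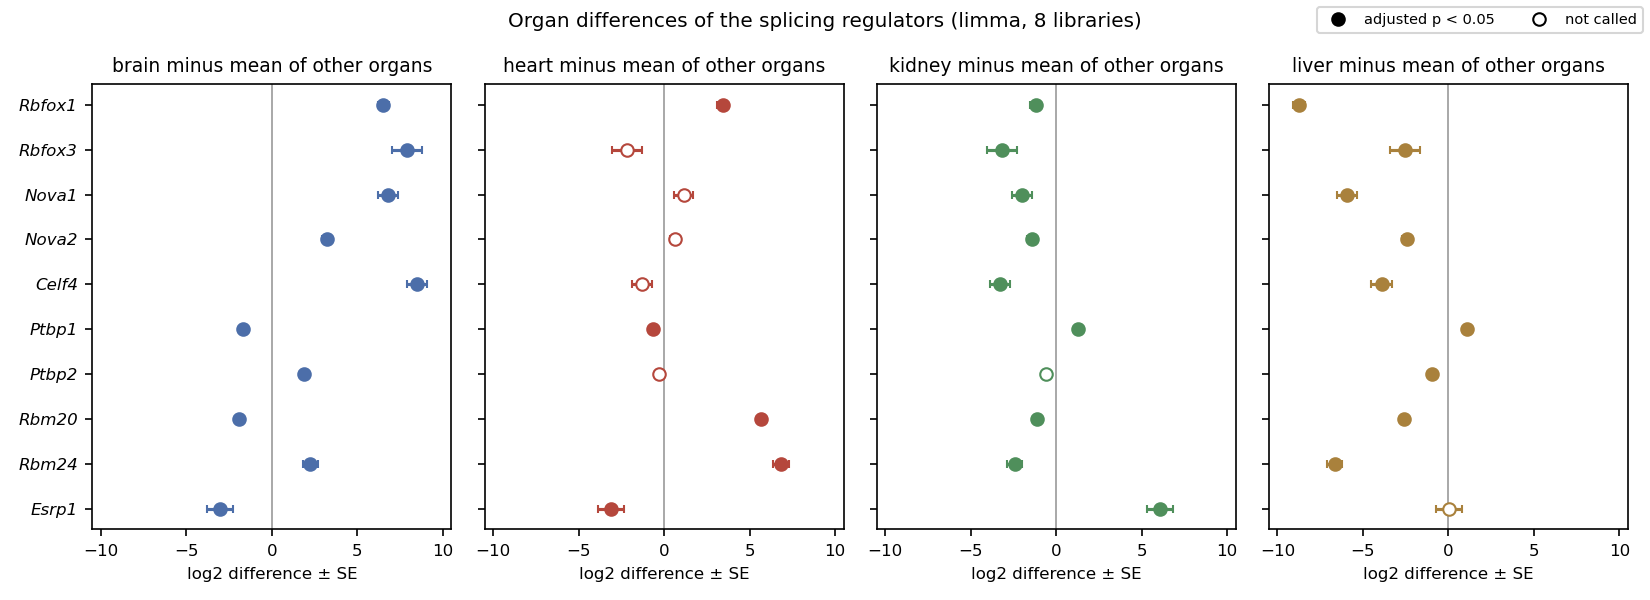
Difference between each organ and the mean of the other 3 organs for each regulator, in log2 units with its standard error, from limma over 8 libraries. Filled points have an adjusted p under 0.05. Celf4 in brain is at 8.47, and the point of Rbfox1 in liver rests on 0 reads in both liver libraries, so its place depends on the 0.5 reads added.

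Rbfox1 lies on chromosome 16 (chr16:5885355-7411526, + strand, GRCm38, the build that is also called mm10) and spans 1526 kb. Its protein binds UGCAUG and acts in neurons, heart and muscle. Rbfox1 had 152 CPM in FFPE brain and 83.4 CPM in frozen brain, 21.8 CPM in FFPE heart and 23.4 CPM in frozen heart, 2.45 CPM in FFPE kidney and 1.64 CPM in frozen kidney. In liver it had 0 reads in both libraries, which allows up to 0.207 CPM in FFPE and 0.288 CPM in frozen liver (3 reads). The 4 organs did not overlap, and all 3 steps of the order brain, heart, kidney and liver passed the test (adjusted p = 0.00133, 0.000218 and 1.59e-05, limma). Rbfox1 was 6.99-fold (95% counting interval 6.19 to 7.93) higher in brain than in heart in the FFPE libraries and 3.56-fold (3.12 to 4.09) in the frozen ones. Against liver the lower end of its 95% counting interval was 599-fold in FFPE brain and 235-fold in frozen brain. Rbfox1 and Rbm24 were the genes called higher in both brain and heart. For Rbfox1 these differences were 6.52 ± 0.33 and 3.43 ± 0.33 log2 units (SE).

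Rbfox3, whose protein is the neuronal nuclear antigen NeuN, lies on chromosome 11 (chr11:118489762-118911597, − strand). It had 73.9 CPM in FFPE brain and 44.7 CPM in frozen brain. Outside brain its counts were 8 reads in FFPE heart and 1 in frozen heart, 8 in FFPE kidney and 1 in frozen kidney, and 1 in FFPE liver and 6 in frozen liver. The brain libraries stood far above all others, and the 3 other organs overlapped. Rbfox3 was higher in brain by 7.89 ± 0.88 log2 units (SE, limma adjusted p = 7.05e-05), while heart and liver (adjusted p = 0.861) and liver and kidney (adjusted p = 0.764) were not separated. In heart, Rbfox1 and Rbfox3 diverged. Per Rbfox1 read there were 0.0279 Rbfox3 reads (0.0119 to 0.0557) in FFPE heart, against 0.485 (0.454 to 0.518) in FFPE brain, and 0.00417 (0.000105 to 0.0234) in frozen heart, against 0.537 (0.499 to 0.577) in frozen brain.

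The Nova proteins, which bind YCAY clusters in neuronal pre-mRNAs, are encoded by Nova1 (chr12:46694517-46818929, − strand) and Nova2 (chr7:18925888-18965319, + strand). Nova1 had 49.8 CPM in FFPE brain and 54.5 CPM in frozen brain, 1.67 CPM in FFPE heart and 4.39 CPM in frozen heart, 0.861 CPM in FFPE kidney and 0.293 CPM in frozen kidney, and 1 read in FFPE liver and 0 in frozen liver. The organs did not overlap and all 3 steps of the order brain, heart, kidney and liver passed the test (adjusted p = 0.000973, 0.0267 and 0.0103, limma). In the frozen libraries Nova1 was at least 189-fold higher in brain than in liver. Nova2 had 66.1 CPM in FFPE brain and 55.8 CPM in frozen brain, 27.9 CPM in FFPE heart and 9.16 CPM in frozen heart, 6.25 CPM in FFPE kidney and 4.74 CPM in frozen kidney, and 3.58 CPM in FFPE liver and 2.88 CPM in frozen liver. Nova2 thus had reads in every library, with 30 in frozen liver as its lowest count, and the organs did not overlap. It was called higher in brain by 3.21 ± 0.27 log2 units (SE, adjusted p = 1.61e-05), whereas kidney and liver were not separated (0.75 ± 0.34, SE, adjusted p = 0.11).

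In brain the Nova genes had similar read counts, with 1.33 Nova2 reads (1.22 to 1.45) per Nova1 read in FFPE and 1.02 (0.95 to 1.10) in frozen brain. In heart the ratio was 16.7 (10.9 to 27.0) in FFPE and 2.09 (1.45 to 3.05) in frozen tissue, and in kidney 7.26 (4.48 to 12.4) and 16.2 (6.66 to 51.2). Of the exon bases of Nova2, 31.7% are overlapped by Gm26821, a long non-coding RNA on the opposite strand that is not in the table. The sources used here give no strand setting for the counting, so reads of Nova2 and of that RNA cannot be told apart there.

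Celf4 binds GU-rich RNA and is known as a neuronal regulator of mRNA stability and translation as well as splicing. It had 164 CPM in FFPE brain and 177 CPM in frozen brain. The other libraries held 12 reads in FFPE heart and 12 in frozen heart, 21 in FFPE kidney and 2 in frozen kidney, and 4 in FFPE liver and 2 in frozen liver. Brain stood apart and the other 3 organs overlapped. Celf4 was higher in brain by 8.47 ± 0.59 log2 units (SE, limma adjusted p = 5.95e-06). Heart and kidney (adjusted p = 0.133) and kidney and liver (adjusted p = 0.646) were not separated.

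Ptbp1 (chr10:79854427-79864771, + strand) and its paralogue Ptbp2 (chr3:119718742-119784466, − strand) encode polypyrimidine tract binding proteins, which repress exons flanked by CU-rich sequence. Ptbp1 is made in most non-neuronal cells and Ptbp2 in neurons. As background, PTBP1 causes an exon of 34 bases in Ptbp2 to be skipped, the reading frame shifts and the transcript is degraded, and PTBP1 limits its own transcript through the matching exon. Because these exons link the gene that was lowest in brain, Ptbp1, with the one that was highest there, Ptbp2, both are printed 5′ to 3′ from the GENCODE M21 transcripts (GRCm38). Capitals mark bases that are the same at the same position in both exons. The Ptbp1 exon is chr10:79862014-79862047 (+ strand) and the Ptbp2 exon is chr3:119724612-119724645 (− strand).
Ptbp1 exon: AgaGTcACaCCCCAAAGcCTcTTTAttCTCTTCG
Ptbp2 exon: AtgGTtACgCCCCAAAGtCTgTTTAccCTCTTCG
Of the 34 positions 26 (76.5%) are shared. Both exons are wholly coding and 1 base longer than a multiple of 3. In the annotation, 3 coding transcripts of Ptbp1 include the exon and 2 transcripts marked for nonsense-mediated decay skip it, and for Ptbp2 these counts are 2 and 1. Gene-level reads do not show how often either exon was used in these libraries.

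Ptbp1 had 14.6 CPM in FFPE brain and 12.1 CPM in frozen brain, 21.8 CPM in FFPE heart and 22.6 CPM in frozen heart, 58.1 CPM in FFPE kidney and 64.6 CPM in frozen kidney, and 53.5 CPM in FFPE liver and 56.6 CPM in frozen liver. Brain was lowest and no organ overlapped another, yet kidney and liver differed by only 0.15 ± 0.17 log2 units (SE, adjusted p = 0.515, limma). Ptbp1 was lower in brain by 1.67 ± 0.14 log2 units (SE, adjusted p = 1.32e-05), and higher in kidney by 1.27 ± 0.14 (SE, adjusted p = 0.000174) and in liver by 1.07 ± 0.14 (SE, adjusted p = 0.000201). Ptbp2 had 56.3 CPM in FFPE brain and 54.2 CPM in frozen brain, 17.2 CPM in FFPE heart and 18.1 CPM in frozen heart, 21.2 CPM in FFPE kidney and 10.9 CPM in frozen kidney, and 15.4 CPM in FFPE liver and 9.98 CPM in frozen liver. Brain was above all other libraries, which overlapped among themselves. Ptbp2 was higher in brain by 1.88 ± 0.21 log2 units (SE, adjusted p = 7.66e-05).

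The number of Ptbp2 reads per Ptbp1 read differed widely between organs. The ratio was 3.86 (95% counting interval 3.37 to 4.44) in FFPE brain and 4.49 (3.96 to 5.09) in frozen brain. It was 0.788 (0.659 to 0.941) in FFPE heart and 0.802 (0.657 to 0.977) in frozen heart, 0.365 (0.327 to 0.406) in FFPE kidney and 0.169 (0.144 to 0.198) in frozen kidney, and 0.288 (0.247 to 0.335) in FFPE liver and 0.176 (0.142 to 0.217) in frozen liver. Brain was the organ with more Ptbp2 than Ptbp1 reads in both libraries, and all 6 other libraries had fewer. Divided by exon length, the ratio remained above 1 in brain (1.995 in FFPE, 2.32 in frozen) and below 1 elsewhere, also with the length of the longest coding transcript. The mean log2 ratio was 3.55 higher in the 2 brain libraries than in the other 6, an 11.7-fold difference. An exact two-sided permutation test over the 8 libraries gave p = 0.0714, the smallest that its 28 splits allow, so this permutation test cannot reach 0.05 here. Parts of the Ptbp1 exons overlap genes on the opposite strand, among them 5.30% with Plppr3, a neuronal gene that had 213 reads in FFPE brain and 729 in frozen brain. With the strand setting not given, reads in that stretch cannot be told apart.

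**Figure D3:**
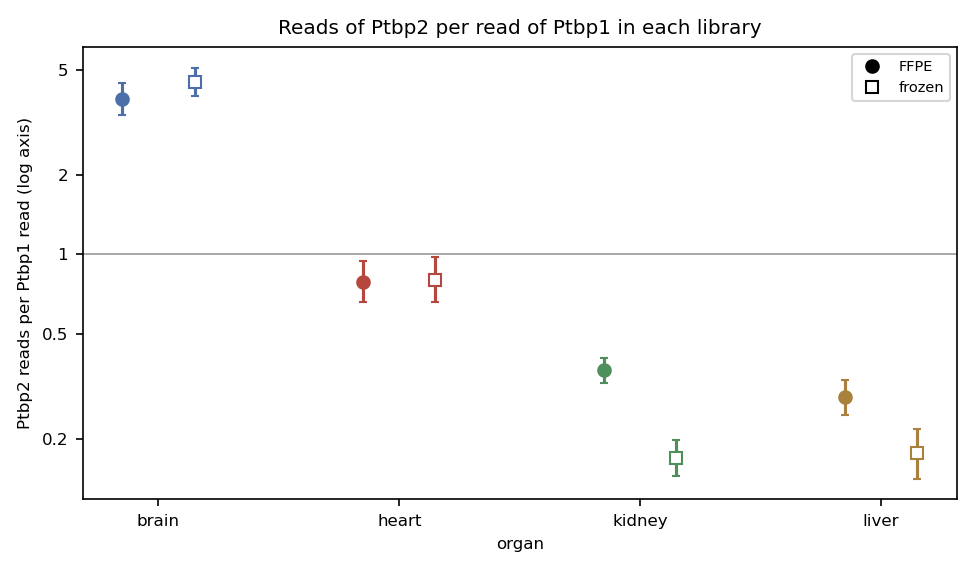
Reads of Ptbp2 per read of Ptbp1 in each library on a log axis, with 95% counting intervals. Filled circles are FFPE and open squares frozen libraries. The brain libraries lie at 3.86 and 4.49 and the other 6 below 1.

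The sequence before the annotated starts of these paralogues also differs and is shown as 250 bases upstream of the RefSeq start (GRCm38.p6), 5′ to 3′ on the gene's strand. Capitals mark GGGCGG or its reverse complement CCGCCC, the core of a GC box, searched on both strands with overlapping matches counted. The Ptbp2 window is chr3:119783389-119783638 (− strand) and the Ptbp1 window is chr10:79854182-79854431 (+ strand). The GENCODE span of Ptbp2 starts further upstream, at chr3:119784466, so the Ptbp2 window lies inside that span.
Ptbp2: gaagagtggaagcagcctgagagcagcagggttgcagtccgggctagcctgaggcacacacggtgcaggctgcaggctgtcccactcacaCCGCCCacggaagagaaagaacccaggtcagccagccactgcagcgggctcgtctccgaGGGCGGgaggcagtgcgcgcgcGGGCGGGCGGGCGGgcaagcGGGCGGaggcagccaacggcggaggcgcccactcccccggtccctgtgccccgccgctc
Ptbp1: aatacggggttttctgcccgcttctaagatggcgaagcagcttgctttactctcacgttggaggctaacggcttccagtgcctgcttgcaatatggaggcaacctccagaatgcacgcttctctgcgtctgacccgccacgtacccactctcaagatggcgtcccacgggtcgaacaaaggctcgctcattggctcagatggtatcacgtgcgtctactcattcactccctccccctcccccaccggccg
The Ptbp2 window has 6 matches and a GC content of 72.4%, and the Ptbp1 window has 0 matches and 57.6%. Of 32536 upstream windows of the same length 33% hold a match, and their median GC content is 52.4%. Among the 8 windows found for 7 of the regulators, Nova2 and Ptbp2 hold GGGCGG. A match in these letters is a description and not evidence of a bound site.

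Rbm20 (chr19:53677306-53867080, + strand) governs titin splicing in heart muscle, and variants of it are known to cause cardiomyopathy. It had 231 CPM in FFPE heart and 127 CPM in frozen heart, 3.63 CPM in FFPE brain and 2.93 CPM in frozen brain, 5.57 CPM in FFPE kidney and 4.51 CPM in frozen kidney, and 3.38 CPM in FFPE liver and 1.54 CPM in frozen liver. Heart lay above every other library, and brain and liver overlapped. Rbm20 was higher in heart by 5.66 ± 0.22 log2 units (SE, limma adjusted p = 1.04e-06). Heart was 63.5-fold (49.7 to 82.5) above brain in the FFPE libraries and 43.2-fold (34.2 to 55.4) in the frozen libraries. Among the other organs no neighbouring pair was separated (kidney and brain adjusted p = 0.0879, brain and liver adjusted p = 0.14). The calls of Rbm20 as lower in brain, kidney and liver are comparisons with means that include heart.

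Rbm24 (chr13:46418434-46431095, + strand), a regulator of muscle splicing and of heart development, had 91.7 CPM in FFPE heart and 66.7 CPM in frozen heart, 6.87 CPM in FFPE brain and 7.57 CPM in frozen brain, 1.22 CPM in FFPE kidney and 0.293 CPM in frozen kidney, and 1 read in FFPE liver and 0 in frozen liver. No organ overlapped another, and all 3 steps of the order heart, brain, kidney and liver passed the test (adjusted p = 0.000751, 0.000644 and 0.0018). Rbm24 was higher in heart by 6.83 ± 0.45 log2 units (SE, adjusted p = 7.42e-06), and in the frozen libraries heart was at least 231-fold above liver. It was also called higher in brain (2.25 ± 0.45, SE, adjusted p = 0.00203), a comparison with a mean in which liver had 0 or 1 read. With log2(CPM + 5) that brain difference was −0.13 (adjusted p = 0.395), and without the frozen brain library it was 1.60 (adjusted p = 0.0606). The skeletal muscle markers Myh1, Myh2, Myh4, Actn3 and Mybpc1 summed to 11.5 CPM in FFPE heart and 1.17 CPM in frozen heart, while 5 cardiomyocyte markers summed to 21801 CPM in FFPE heart and 25494 CPM in frozen heart. Rbm20 and Rbm24 thus shared heart as the top organ and differed in the order of the rest. In brain there were 0.528 Rbm20 reads (0.385 to 0.719) per Rbm24 read in the FFPE library and 0.387 (0.292 to 0.509) in the frozen library, whereas kidney had 4.56 (2.98 to 7.19) in FFPE and 15.4 (6.32 to 48.8) in frozen tissue.

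Esrp1 (chr4:11331933-11386783, − strand) promotes the epithelial forms of transcripts such as Fgfr2 and Cd44. It had 11.2 CPM in FFPE kidney and 7.02 CPM in frozen kidney, from 247 and 120 reads. The remaining libraries held 6 reads in FFPE liver and 3 in frozen liver, 5 in FFPE brain and 0 in frozen brain, and 1 in FFPE heart and 0 in frozen heart. Kidney stood apart from all others. Esrp1 was higher in kidney by 6.08 ± 0.77 log2 units (SE, limma adjusted p = 0.00039). In the frozen libraries kidney was at least 59.0-fold above brain and at least 24.0-fold above heart, and against liver the ratio was 24.4 (8.15 to 120). The calls of Esrp1 as lower in brain and in heart rest on counts of 0 to 5, where fitted differences depend on the 0.5 reads added. Without the frozen brain library the brain difference was −1.43 (adjusted p = 0.12). The heart difference was −2.89 (adjusted p = 0.0869) without the FFPE heart library and −3.34 (adjusted p = 0.061) without the frozen heart library.

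The calls that depended most on single libraries were those of genes lower in kidney. Leaving out frozen kidney, the differences were −0.97 for Rbfox1 (adjusted p = 0.226), −2.14 for Rbfox3 (adjusted p = 0.274), −1.22 for Nova1 (adjusted p = 0.328) and −1.69 for Rbm24 (adjusted p = 0.0645). Leaving out FFPE kidney, they were −1.45 for Rbfox1 (adjusted p = 0.0696), −1.26 for Nova2 (adjusted p = 0.0574) and −0.89 for Rbm20 (adjusted p = 0.0848). Other organs' libraries mattered too. Without FFPE brain the kidney differences were −1.06 for Rbfox1 (adjusted p = 0.0675), −3.14 for Rbfox3 (adjusted p = 0.0586) and −2.11 for Nova1 (adjusted p = 0.052). Without frozen brain they were −3.19 for Rbfox3 (adjusted p = 0.0577) and −1.93 for Nova1 (adjusted p = 0.0711), and without frozen heart −1.14 for Rbfox1 (adjusted p = 0.0513). In liver, the difference of Rbfox3 was −0.41 (adjusted p = 0.655) without FFPE liver, and between −2.20 and −2.57 (adjusted p 0.0688 to 0.0791) without either brain library, FFPE heart or FFPE kidney. That of Ptbp2 in liver was −0.83 (adjusted p = 0.0584) without frozen liver. Other settings also ended calls. In kidney, Rbfox1 was at −1.20 with voom (adjusted p = 0.0535), a form of limma that weights read counts, and at −0.96 without the authors' scaling factors (adjusted p = 0.0661). Without the mean-variance trend, the adjusted p in kidney was 0.0673 for Rbfox3 and 0.0548 for Nova1, and in liver 0.0826 for Rbfox3. With quantile normalization the liver difference of Rbfox3 was −1.54 (adjusted p = 0.101).

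Over the 10 genes, 18 of 30 neighbouring pairs in the order of organs were separated. Over all tested genes the share called was 58.0% between brain and heart, 56.6% between brain and kidney and 67.1% between brain and liver. It was 40.9% between heart and kidney, 53.1% between heart and liver and 41.2% between kidney and liver. These shares are for fixed pairs of organs, whereas the 30 pairs were chosen by each gene's own order. The shares are therefore not a like background for them, and none was computed for pairs chosen by order. Of the 10 pairs between the highest organ and the next, 9 passed, with Ptbp1 in kidney and liver as the exception. Of the 10 middle pairs 5 passed, and of the 10 pairs that end with the lowest organ 4 passed.

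Set per kilobase of exon, so that genes can be compared with each other, the most abundant regulators differed by organ. In FFPE brain Rbfox1 stood at 34.6 CPM per kilobase, Celf4 at 19.1 and Rbfox3 at 12.7, and in frozen brain these levels were 18.9, 20.7 and 7.69. In heart Rbm20 reached 34 CPM per kilobase in FFPE and 18.7 in frozen tissue, and Rbm24 reached 26.3 and 19.1. Kidney and liver were led by Ptbp1, at 12.2 CPM per kilobase in FFPE kidney and 13.6 in frozen kidney, and at 11.3 in FFPE liver and 11.95 in frozen liver. Even in its top organ Esrp1 had 1.78 CPM per kilobase in FFPE and 1.11 in frozen tissue. Some orders depend on the length used. Per kilobase of the longest coding transcript, frozen brain had Celf4 at 44.4, Rbfox1 at 27.2, Ptbp2 at 14.4 and Rbfox3 at 14.2. By that length frozen heart had Rbm20 at 25.9 and Rbm24 at 21.6. Summed over the 10 genes, FFPE brain had 587 CPM and frozen brain 492 CPM, while FFPE liver had 76.8 CPM and frozen liver 72.1 CPM.

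For each regulator the genes with the most similar pattern were found among 14780 tested genes by the root mean square difference of mean-centred log2 levels over the 8 libraries. The nearest to Rbfox3 were Grid2ip (0.47) and Necab2 (0.47), and the nearest to Celf4 were Epha10 (0.34) and Slitrk3 (0.34). Rbfox1 was closest to Phyhip (0.69), Nova1 to Lonrf2 (0.66) and Nova2 to Plxna4 (0.25). Rbm20 was closest to Doc2g (0.47) and Gja3 (0.49), and Rbm24 to Usp13 (0.58) and Tmod1 (0.59), the last of which caps actin filaments in muscle. Ptbp1 lay nearest to Kdm1b (0.15), Ptbp2 to Enoph1 (0.16) and Esrp1 to Hoxa5 (0.65) and Elf3 (0.65), an epithelial transcription factor. The profiles of Ptbp1 and Ptbp2 were not rare, with 287 and 430 genes within 0.5 log2 units, whereas Rbfox1, Nova1, Rbm24 and Esrp1 had 0 such genes.

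Other tissue-regulated splicing factors were read from lists. All 10 further neuronal factors were called higher in brain, with a median of 8.22 log2 units, beside 34.7% of all tested genes. That count is not independent of the filter for tested genes. Celf3, Celf5, Celf6, Elavl2, Elavl4, Srrm3 and Khdrbs2 exceeded 1 CPM in the brain libraries only and so entered the test through brain. Celf5 (9.14 ± 0.80, SE), Elavl4 (9.04 ± 0.67, SE), Elavl2 (8.82 ± 0.93, SE) and Celf3 (8.66 ± 0.95, SE) led, all of them members of the Celf and Elavl families of RNA-binding proteins. Srrm4, which activates neuronal microexons, was called higher in heart too (1.37 ± 0.24, SE, adjusted p = 0.00165), as was Khdrbs3. In liver 9 of the 10 were lower, beside 35.2% of all tested genes. The 2 epithelial factors, Esrp2 and Rbm47, differed from Esrp1 in liver. Esrp2 had 35.3 CPM in FFPE liver and 45.0 CPM in frozen liver, and was higher in liver by 6.59 ± 0.94 log2 units (SE, adjusted p = 0.000362). Esrp1 in liver did not pass (0.06 ± 0.77, SE, adjusted p = 0.954). In kidney Esrp2 (4.27 ± 0.94, SE) and Rbm47 (5.06 ± 0.28, SE) were both higher, as Esrp1 was.

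Of 14 more broadly made regulators, 8 were higher and 4 lower in brain, and 6 higher and 2 lower in heart. Over all tested genes 34.7% were called higher and 31.6% lower in brain, and 21.5% higher and 28.7% lower in heart. Celf2 (3.38 ± 0.17, SE) and Raver2 (3.32 ± 0.48, SE), a partner of Ptbp proteins, were higher in brain, and Mbnl3 (−3.04 ± 0.40, SE) and Rbm38 (−2.81 ± 0.35, SE) lower. Rbm38 was higher in heart by 4.79 ± 0.35 log2 units (SE, adjusted p = 1.36e-05). Ptbp3, the other paralogue, followed Ptbp1 in being lower in brain (−1.87 ± 0.18, SE, adjusted p = 2.66e-05) and higher in liver (1.57 ± 0.18, SE, adjusted p = 8.94e-05) and kidney (0.80 ± 0.18, SE, adjusted p = 0.00719). General splicing factors varied less between organs. The median absolute organ difference was 0.22 for 13 SR proteins, 0.25 for 19 hnRNP proteins and 0.18 for 20 core spliceosome proteins. It was 2.43 for the 10 regulators and 0.85 for all tested genes. The 10 regulators were picked as tissue-specific, and Rbfox3, Celf4 and Esrp1 entered the test through their top organ. Their larger value is therefore not independent of how they were chosen. One SR protein, Srsf12, had a difference of 6.69 in brain (adjusted p = 3.68e-05), and it exceeded 1 CPM in the brain libraries only. In brain 2 SR proteins were higher and 2 lower, 6 hnRNP proteins were higher and 2 lower, and 2 core proteins were higher. Centring each library on its median gene would shift the differences by −0.24 in brain, 0.18 in heart, −0.04 in kidney and 0.10 in liver, and in brain this comes close to the median absolute difference of the general factors. Their directions under that scaling were not tested.

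**Figure D4:**
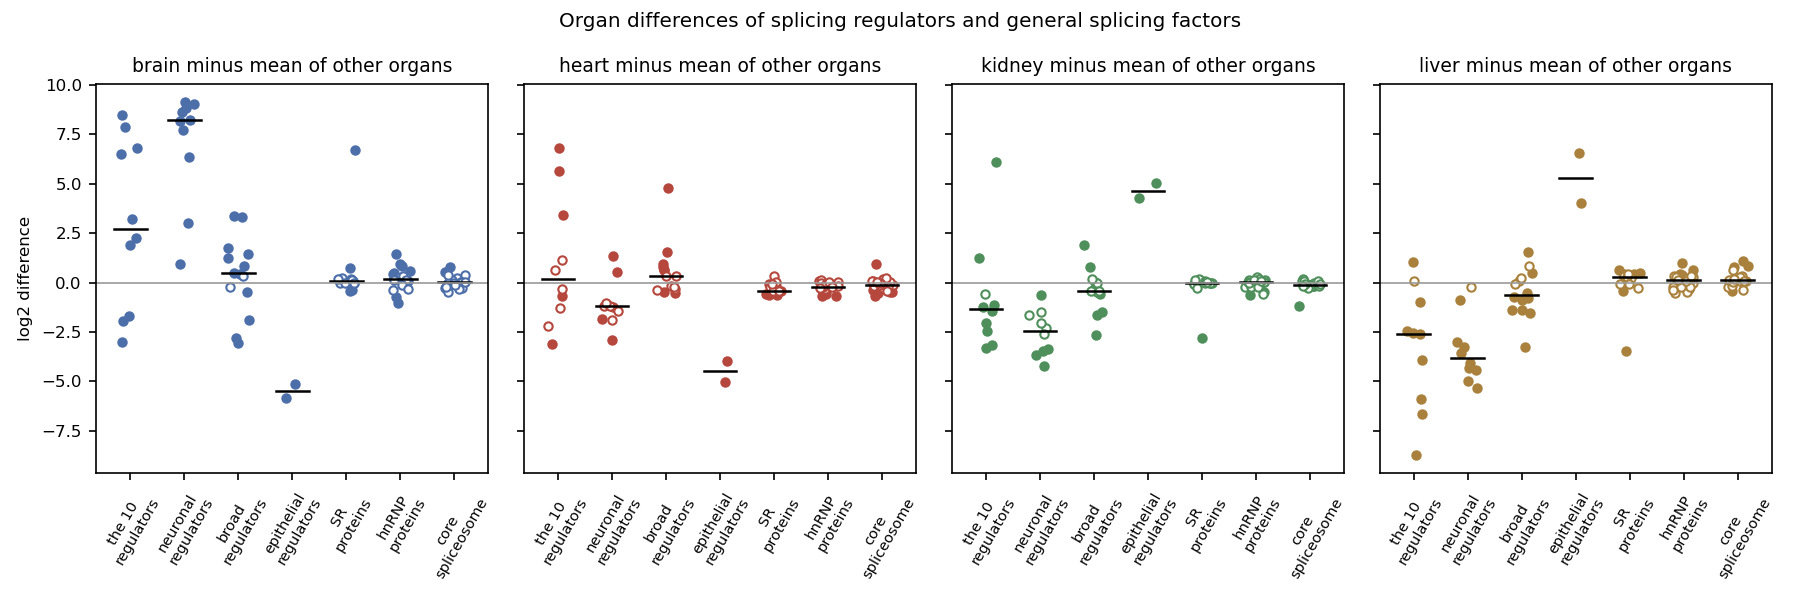
Organ differences in log2 units of the 10 regulators and of 6 lists of other splicing factors, each organ against the mean of the other 3. Each point is a gene, filled where its adjusted p is under 0.05, and the line is the median. The neuronal list has a median of 8.22 in brain, and SR, hnRNP and core spliceosome proteins have medians between −0.40 and 0.29 in the 4 organs.

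Among 13 genes whose transcripts are known to be spliced by the regulators, 9 were higher and 3 lower in brain, and 7 higher and 3 lower in heart. Over all tested genes 34.7% were called higher and 31.6% lower in brain, and 21.5% higher and 28.7% lower in heart. The Nova target Glra2 (7.69 ± 0.76, SE), a glycine receptor subunit, and the Ptbp2 target Dlg4 (5.87 ± 0.38, SE), a scaffold of synapses, were higher in brain. Glra2 exceeded 1 CPM in the brain libraries only and so entered the test through brain. The Rbm20 targets Ttn (11.44 ± 0.27, SE), Ldb3 (8.64 ± 0.41, SE) and Ryr2 (8.25 ± 0.25, SE) were higher in heart. Of the Esrp targets, Fgfr2, a growth factor receptor, was lower in heart (−3.98 ± 0.21, SE, adjusted p = 2.75e-06) and higher in brain (1.76 ± 0.21, SE, adjusted p = 0.000107) and liver (1.87 ± 0.21, SE, adjusted p = 9.21e-05). In kidney, the top organ of Esrp1, its difference was 0.34 (adjusted p = 0.241). Cd44, a cell adhesion receptor, was higher in heart (1.45 ± 0.27, SE, adjusted p = 0.00247) and liver (1.49, adjusted p = 0.00151) and lower in kidney (−1.44, adjusted p = 0.00335) and brain (−1.51, adjusted p = 0.0012). These are levels of the target genes and not of their splice forms.

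FFPE against frozen tissue was tested over the 4 organs. With limma 0 of 10 regulators were called in either direction, where 1.2% of all tested genes were called higher and 2.18% lower. Unadjusted, 3 had a limma p under 0.05 (Rbm20, Nova2 and Esrp1). The share of all tested genes under that unadjusted level is not given here, so the 3 have no background. With voom 1 regulator was called, where 3.62% of all tested genes were called higher and 5.28% lower. That gene was Rbm20, whose fitted difference was 0.65 ± 0.19 log2 units (SE, adjusted p = 0.111) and which was higher in FFPE in 4 of 4 organs (adjusted p = 0.035 with voom). Fitted differences were positive for 9 of the 10 genes, with a median of 0.62 against 0.07 for all tested genes. The share of all tested genes with a positive difference was not computed. Some of these fits depend on the 0.5 reads added. Nova1 and Rbm24 in liver had 1 read in FFPE and 0 in frozen tissue. Esrp1 had 5 and 0 in brain and 1 and 0 in heart, and Rbfox1 had 0 in both liver libraries. Without the authors' scaling factors 5 were called higher (Nova2, Ptbp2, Rbm20, Rbm24 and Esrp1), where 23.1% of all tested genes were called higher and 0.461% lower. Among the target genes Ttn (1.37 ± 0.24, SE, adjusted p = 0.0266) and Cacna1c (0.86 ± 0.19, SE, adjusted p = 0.0499) were higher in FFPE tissue, and among core proteins Prpf19 was lower (−0.59, adjusted p = 0.0299).

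Within an organ there is 1 library of each kind, so the ratios below have no replicate check and their intervals cover counting error only. In brain Rbfox1 was 1.83-fold (1.72 to 1.93) and Rbfox3 1.65-fold (1.52 to 1.79) higher in FFPE than in frozen tissue, while Celf4 had a ratio of 0.923 (0.881 to 0.968) and Nova1 of 0.913 (0.838 to 0.994). The brain libraries also differed in regional markers. In sum, 6 cerebellar neuron markers summed to 161 CPM in FFPE brain and 16.9 CPM in frozen brain, with Gabra6 and Pcp2 at 0 reads in the frozen library. The 6 forebrain neuron markers summed to 130 CPM in FFPE and 65.8 CPM in frozen brain, and 5 general neuron markers to 1261 and 964 CPM. The part of these markers in the brain ratios was not tested.

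In heart Nova2 had 368 reads in FFPE and 94 in frozen tissue, a ratio of 3.05 (2.42 to 3.86), while Nova1 had 22 and 45 reads, a ratio of 0.380 (0.218 to 0.647). Rbm20 was 1.82-fold (1.70 to 1.94) and Rbm24 1.38-fold (1.25 to 1.51) higher in FFPE heart, beside cardiomyocyte markers that summed to 21801 CPM in FFPE and 25494 CPM in frozen heart. The 5 neuron markers summed to 10.8 CPM in FFPE heart and 6.34 CPM in frozen heart, with none at 0. In kidney Celf4 had 21 reads in FFPE and 2 in frozen tissue, a ratio of 8.13 (1.99 to 71.5), and Rbm24 had 27 and 5 reads, a ratio of 4.18 (1.59 to 13.9). Ptbp2 was 1.93-fold (1.63 to 2.30) and Esrp1 1.59-fold (1.28 to 1.999) higher in FFPE kidney. There the neuron markers summed to 3.53 CPM in FFPE and 0.878 CPM in frozen kidney, with Snap25 at 0 in the frozen library, and 5 glia markers to 76.5 and 15.9 CPM, with Mog at 0 in both. Of these sums Aqp4, a water channel, held 66.1 CPM in FFPE and 10.1 CPM in frozen kidney and was itself called higher in kidney (1.54 ± 0.41, SE, adjusted p = 0.0174), while the other 4 glia markers summed to 10.4 CPM in FFPE and 5.79 CPM in frozen kidney. Their part in these ratios was not tested. In liver Rbm20 was 2.20-fold (1.23 to 4.14) and Ptbp2 1.55-fold (1.22 to 1.97) higher in FFPE tissue.

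Differences of at least 2-fold between FFPE and frozen tissue were counted for the regulators above the 3-read floor. Brain had 1 of 10, beside 14.6% of all tested genes, and heart had 3 of 9, beside 19.3%. Kidney had 4 of 10, beside 17.2%, and liver had 2 of 7, beside 14.9%. These shares are over all tested genes without that floor, so they are not a like background. Past 2-fold but left out by the floor were Esrp1 in heart and Nova1 and Rbm24 in liver, with 1 read in FFPE and 0 in frozen tissue. The brain case was Esrp1, with 5 reads against 0, at least 2.35-fold. In heart they were Rbfox3, Nova1 and Nova2, in kidney Rbfox3, Nova1, Celf4 and Rbm24, and in liver Rbfox3 and Rbm20. Rbfox3 rested on 8 reads in FFPE against 1 in frozen tissue in heart and in kidney, with ratios of 6.22 (0.834 to 276) and 6.19 (0.831 to 275), and on 1 read in FFPE against 6 in frozen liver. Ptbp1 showed the smallest spread of the 10 genes between organs, with ratios of 1.21 (1.02 to 1.43) in brain, 0.966 (0.810 to 1.15) in heart, 0.899 (0.828 to 0.975) in kidney and 0.945 (0.848 to 1.05) in liver.

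**Figure D5:**
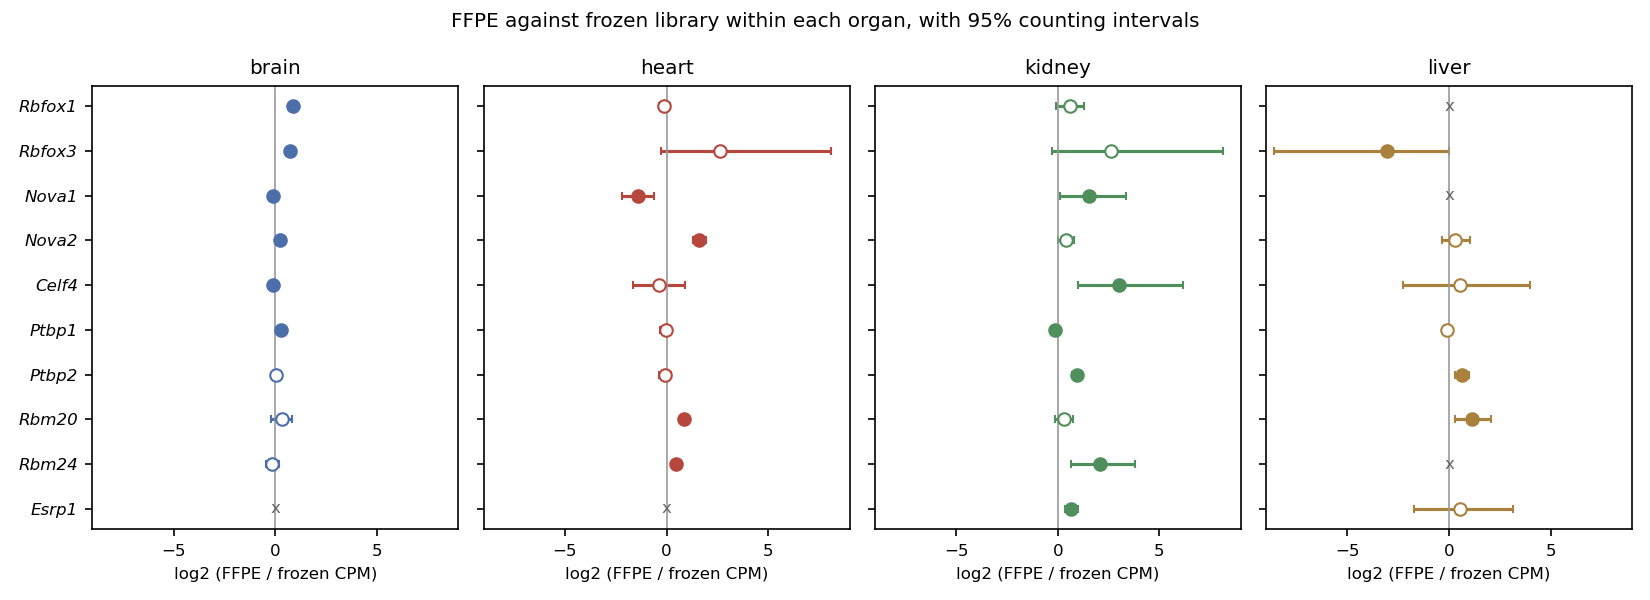
Ratio of CPM in FFPE to frozen tissue for each regulator in each organ, as log2 values with 95% counting intervals, 1 library of each kind. Filled points have an interval that leaves out a ratio of 1, and x marks genes with no reads in at least 1 of the libraries. Nova2 in heart (3.05) lies above a ratio of 1 and Nova1 in heart (0.380) below it, each with an interval that leaves out 1.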

How the data were processed

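The authors deposited 1 table of log2 values per gene and library. The submitters' processing notes name HISAT2, featureCounts, limma and mm10, without versions or settings. The annotation, the strand setting and the scaling method were not given in the sources used here. These deposited log2 values are log2 CPM with 0.5 reads added, on an effective library size of the read total multiplied by a factor between 0.500 and 1.76. Whole reads were recovered for 100% of values within 1e-06. Per the labels' protocols, RNA was extracted with Trizol and sheared, after deparaffinisation for FFPE tissue.

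Genes above log2 CPM 0 in at least 2 libraries (15819) entered a limma fit (version 3.58.1, R 4.3.3) with terms for organ and preservation and a mean-variance trend (3 residual degrees of freedom). The fit was also run on simulated counts with the same spread for every gene and no FFPE differences that vary between organs. That run therefore does not show how the fit performs on these libraries. Counting intervals are exact conditional binomial 95% intervals (scipy 1.17.1). No molecular identifiers mark the reads, so intervals and 3-read floors (0.119 to 0.292 CPM) cover counting error only. Lengths and exons come from GENCODE M21, and upstream sequences from RefSeq, where the windows of Celf4, Rbm20 and Esrp1 were not used. All 10 regulators are named, with the 2 genes nearest to each by pattern and at most 4 genes of each list, called ones with the largest differences first. Further genes were chosen after their values were seen. The regulators and the lists were chosen with earlier results of these data known. The values of 1 gene of the target list are not reported here.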

Additional observations from a re-analysis of the deposited data

Results flagged for a closer look

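For 4 regulators the FFPE and frozen libraries differed in opposite directions in 2 organs, each with a counting interval that leaves out a ratio of 1. These differences between organs were not tested, since each organ has 1 library of each kind. For Rbfox3 the FFPE minus frozen difference was 0.72 log2 units in brain and −2.59 in liver, the second from 1 read in FFPE and 6 in frozen liver. Nova1 had a difference of 1.46 in kidney, against −0.13 in brain and −1.38 in heart. For Celf4 it was 2.74 in kidney (21 reads in FFPE, 2 in frozen tissue) and −0.11 in brain. Ptbp1 had 0.27 in brain and −0.15 in kidney, from 261 to 1281 reads per library.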

How the results depend on the processing

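Each organ has 1 library per preparation and the labels carry no replicate numbers. No paired analysis was possible because of this, beyond organ as a block in the FFPE comparison. Of 33 called differences 22 kept their call under every alternative fit that still held the gene, and 11 lost it or turned at least once. A count-model test of the recovered reads that had been planned was not run, and voom was used. Omitting the scaling factors in the model fits, the single-preparation values and the longest-transcript length were added after seeing the data. Counts below 10 reads limit Rbfox1 (0 reads in both liver libraries), Rbfox3, Nova1, Celf4, Rbm24 and Esrp1 outside their main organs.

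Under the stricter filter (log2 CPM above 1 in at least 4 libraries) 6 of the 10 genes remained testable, so the calls became 4 higher in brain, 1 lower in heart, 1 higher and 4 lower in kidney and 5 lower in liver. In heart 4 genes were lower with quantile normalization, 5 with log2(CPM + 5) and 5 without scaling factors. No shares of all tested genes are given for these heart counts, the stricter filter or the fits that leave out 1 library. Those counts therefore cannot be set against a background. Without scaling factors 5 genes were higher in FFPE tissue (23.1% of all tested genes), and 1 with voom (3.62%). Genes past 2-fold between FFPE and frozen tissue numbered 2 in brain (15.5% of all tested genes) and 8 in kidney (32.9%) without scaling factors. With log2(CPM + 5) they numbered 0 in brain (1.69% of all tested genes), 1 in heart (1.19%), 0 in kidney (1.26%) and 0 in liver (1.02%). The regulators counted were those above the 3-read floor, whereas the shares are over all tested genes. Leaving out 1 library at a time gave 6 to 7 higher and 2 to 3 lower in brain, 3 to 4 higher and 1 to 3 lower in heart, 2 higher and 3 to 8 lower in kidney, 1 higher and 7 to 8 lower in liver, 0 in the FFPE comparison, and 16 to 19 separated neighbours. The 3 in kidney came without frozen kidney and 4 without FFPE brain, and the 1 in heart came without either heart library. Leaving out a library also added calls in heart, those of Rbfox3 without FFPE liver (−2.89), Nova1 without FFPE heart (2.23), Nova2 without frozen heart (1.29) and Celf4 without frozen kidney (−1.74), and in kidney that of Ptbp2 without FFPE heart (−0.70) or FFPE kidney (−0.97).

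Of the called differences 1 changed sign, that of Rbm24 in brain with log2(CPM + 5) (−0.13). Of the uncalled differences, that of Nova1 in heart changed sign with log2(CPM + 5) and was called lower (−0.56, limma adjusted p = 0.0107). So was that of Esrp1 in liver with log2(CPM + 5) (−0.41, limma adjusted p = 0.00659). The sign also changed for Esrp1 in liver without scaling factors (−0.28) and with voom (−0.067), and for Nova2 in heart without scaling factors (−0.20). In the FFPE comparison the uncalled differences that changed sign were those of Nova1 with log2(CPM + 5) (−0.11) and voom (−0.16) and Celf4 with voom (−0.018). That of Ptbp1 changed with quantile normalization (0.041), median centring (0.0088) and without scaling factors (0.47). Leaving out 1 library at a time, the ranges that crossed 0 were −0.62 to 0.0026 for Ptbp2 in heart and −0.71 to 0.83 for Esrp1 in liver. In the FFPE comparison they were −0.0056 to 0.44 for Rbfox1, −0.13 to 0.81 for Nova1, −0.036 to 1.00 for Celf4 and −0.096 to 0.046 for Ptbp1. The cause of these changes was not tested.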
